A study of Homo sapiens with 6 samples.

Results

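The genes described here encode the molecular chaperones of the cytosol, nucleus and mitochondria, together with the co-chaperones and heat shock factors named with them. They were chosen by symbol alone: HSPA, HSPB, HSPD, HSPE and HSPH genes, HSP90 genes, DNAJA, DNAJB and DNAJC genes, the CCT genes with *TCP1*, *BAG1* to *BAG6*, *PFDN1* to *PFDN6*, *HSF1* and *HSF2*. Of the 20348 genes in the table, 97 symbols matched, and 95 remained after *HSPA5* and *DNAJB9*, which belong to the unfolded protein response, were set aside. Of the 95 genes, 3 are read-through genes that join a chaperone to its neighbour. They are part of the counts over all members, but not of any family. The symbols also bring in chaperones of the endoplasmic reticulum (ER), such as *HSP90B1* and *HSPA13*, which are given as a group of their own. Lists by compartment placed 8 members in mitochondria and 10 in the ER, and 74 were in neither list.

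HSP70 proteins bind exposed stretches of unfolded proteins and release them in a cycle driven by ATP. J-domain proteins of the DNAJ families start that cycle. HSP110 and several BAG proteins end it by exchanging the nucleotide. HSP90 finishes and holds client proteins such as kinases and steroid receptors, the TRiC ring folds actin and tubulin that prefoldin delivers, and the HSP60 and HSP10 chaperonins fold proteins imported into mitochondria. *HSF1*, the master transcription factor of the heat shock response, drives many of these genes, and kinases that drive leukemia, FLT3 among them, are clients of HSP90.

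The study compared MV4-11 cells, a human acute myeloid leukemia (AML) line that carries a KMT2A fusion and an internal tandem duplication in *FLT3*, with and without WNK463, an inhibitor of the WNK kinases. The Control group held 3 untreated samples and the WNK463 group 3 samples kept with 1 µM WNK463 for 48 h, and RNA was sequenced from all 6. A single line was used, and the labels do not say whether the 3 samples of a group came from separate cultures, so the p-values measure the spread between these samples, which may be technical. The samples held 14915745 to 17411780 counts each. All 10 myeloid markers examined were measured above the low-count filter, among them *PTPRC*, *CD33*, *FLT3* and *SPI1*, against 0 of 6 T and B cell markers, 0 of 4 erythroid markers and 1 of 6 epithelial or stromal markers (*KRT8*). Levels of different genes are set side by side in transcripts per 1000000 (TPM), which corrects for length, and samples are compared in counts per 1000000 (CPM) scaled by TMM factors, which put the middle of all genes at about the same level in every sample. A gene is called higher or lower where the Benjamini-Hochberg adjusted p of edgeR's quasi-likelihood test, taken over all 11973 genes tested, is below 0.05.

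The abundant chaperones were mostly downregulated after WNK463. The J-domain genes moved in both directions, at shares near those of all genes. Of the 79 members with enough counts to test, 38 were lower (48.1%), 21 were higher (26.6%) and 20 did not pass, while over all genes tested 35.3% were lower and 35.5% were higher. At a change of at least 2-fold, 6 members were higher (7.59%) and 4 lower (5.06%), where 9.62% of all genes were higher and 5.55% lower. Without the read-through genes 77 members were tested, with 38 lower and 20 higher, and 4 lower and 5 higher by at least 2-fold. The 2 groups did not overlap in CPM for 63 of the members tested, 39 with WNK463 below Control and 24 above, against 36.4% and 37.1% of all genes (73.5% in either direction). The median log2 fold change was -0.12 over the members and 0.02 over all genes. The summed TPM of the members went from 14829 ± 417 to 12134 ± 40.2 (SD, n = 3), from 1.48% to 1.21% of all transcripts. In bulk RNA, fewer cells of a type and less RNA per cell cannot be told apart.

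The split between higher and lower depended on how samples were scaled. Scaled by total counts, without TMM, 27 members were higher and 30 lower, so that 52.6% of the called members were lower in place of 64.4%, and 36.1% of all called genes were lower in place of 49.8%. That scaling raised the median of all genes by 0.15 on the log2 scale. Of the 59 called members, 45 were called in the same direction under every alternative that tested them. Among the 45, *DNAJC28* and *DNAJC12* were not tested under a filter of at least 10 counts in every sample. The called members outside the 45 are named with their values where they are described.

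**Figure D1:**
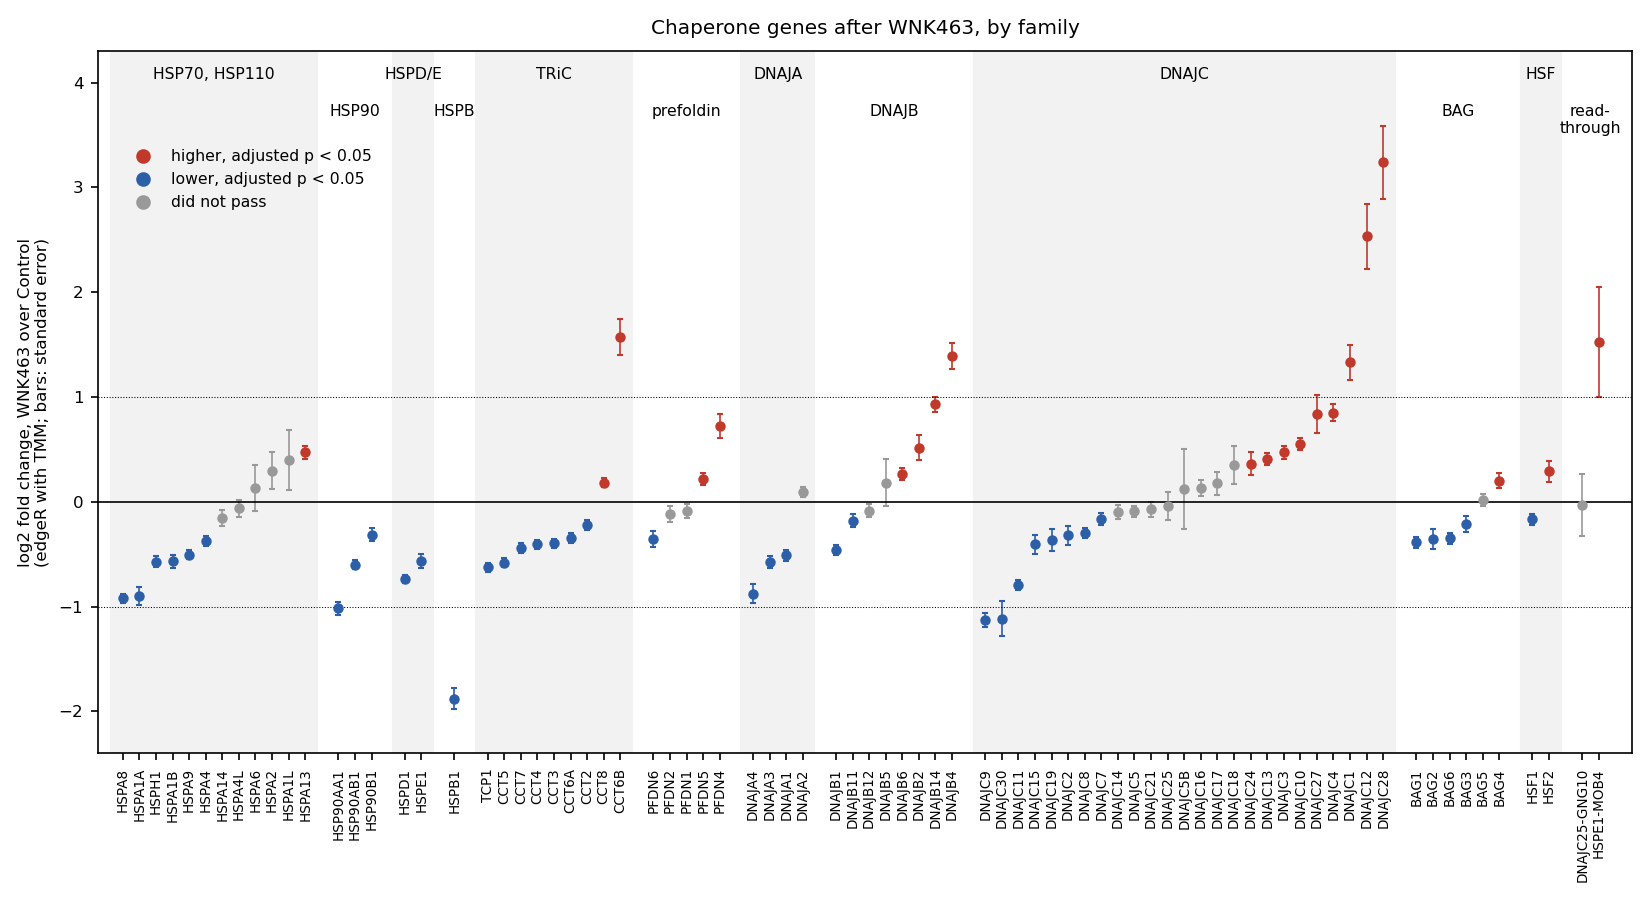
Log2 fold change of each of the 79 tested members (vertical axis, WNK463 over Control, edgeR with TMM, bars standard error), grouped by family along the horizontal axis and coloured by call. HSP90, HSPD/E and HSPB members all lie below 0, and the 6 members called higher by at least 2-fold are *DNAJC28*, *DNAJC12*, *CCT6B*, *DNAJB4*, *DNAJC1* and the read-through gene *HSPE1-MOB4*.

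The share of members called lower was larger at higher levels, and so was the share of all genes. Among the 17 members at 200 TPM or more over the 6 samples, 15 were lower (88.2%) and 2 higher, while 64.7% of the 733 genes tested at that level were lower. Between 50 and 200 TPM, 12 of 20 members were lower (60%), against 48.9% of all genes. Between 10 and 50 TPM, 8 of 25 members were lower (32%) and 11 higher, against 33.7% and 38.2%. Below 10 TPM, 3 of 15 members were lower and 5 higher, with 20% of members and 20% of all genes lower. The read-through genes are left out of these counts.

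Promoter sequences are shown first for the genes whose changes open the results, because *HSF1* binds DNA at heat shock elements built from inverted GAA units. In the RefSeq promoters (250 bases before to 50 after each annotated start, GRCh38.p14), an element of 3 units, GAANNTTCNNGAA read on both strands, stood before 7 of the 83 members with a promoter in the table (8.43%) and 166 of 27305 genes (0.608%). The 7 were *HSPA8*, *HSP90AA1*, *HSP90AB1*, *HSPD1*, *DNAJA1*, *DNAJB6* and *HSPA6*. The stretches below carry the elements of 6 of them, written 5′ to 3′ on the gene's own strand, with the letters of the units in capitals.
HSPA8, chr11:123062346-123062374, minus strand: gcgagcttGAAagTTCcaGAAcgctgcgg
HSPA8, chr11:123062171-123062199, minus strand: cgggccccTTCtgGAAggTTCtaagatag
HSP90AA1, chr14:102087112-102087140, minus strand: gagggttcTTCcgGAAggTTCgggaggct
HSP90AB1, chr6:44247763-44247862, plus strand: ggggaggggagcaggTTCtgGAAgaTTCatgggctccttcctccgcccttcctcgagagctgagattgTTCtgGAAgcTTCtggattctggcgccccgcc
HSPD1, chr2:197500062-197500090, minus strand: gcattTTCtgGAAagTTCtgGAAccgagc
HSPA6, chr1:161524458-161524486, plus strand: cggaaaggTTCgcGAAagTTCgcggcggc
DNAJB6, chr7:157336854-157336923, plus strand: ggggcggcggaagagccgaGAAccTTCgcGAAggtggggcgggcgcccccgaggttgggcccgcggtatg

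The windows of *HSPA8*, *HSP90AA1* and *HSPD1* lie in exons of longer transcripts of those genes in GENCODE 29. The *HSPD1* window also lies in exons of *HSPE1*, another member. Those of *HSP90AB1* and *DNAJB6* lie within the gene with 0 exonic bases. The *HSPA6* window lies outside that gene and within *AL590385.2*. The element of *DNAJA1* lies at its start and is not shown. *HSPA8* held 2 separate elements, 230 and 55 bases before its start, and *HSP90AB1* also held 2, at 165 and 112 bases. The 2 matches of *HSPD1* overlap and form a run of 4 units. Of the 7 genes with an element, 5 were lower, *DNAJB6* was higher and *HSPA6* did not pass. Their median log2 fold change was -0.60, against -0.09 in the tested members whose promoters lack the letters. That second group held 31 lower and 17 higher genes. Its lower genes include *HSPA1A* (-0.90), *HSPA1B* (-0.57) and *DNAJB1* (-0.46), which are in the list of *HSF1* targets used below. The strict letters thus miss some listed targets of *HSF1*. The genes also differ in level: the 5 lower ones had Control means from 219 (*DNAJA1*) to 2493 TPM (*HSPA8*), against 97.3 for *DNAJB6* and 2.56 for *HSPA6*. At 200 TPM or more, 64.7% of all genes were lower. Whether the element or the level goes with the change was not tested. A match describes the letters in that window and nothing about binding, which was not measured. The shorter run TTCNNGAA, which every 3-unit element contains, stood before 18.1% of the members and 9.46% of all genes. The CCAAT box, a common promoter element, stood before 38.6% of the members and 39.7% of all genes.

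The constitutive HSP70 gene and both cytosolic HSP90 genes carried most of the fall in chaperone transcripts. *HSPA8*, which encodes HSC70, the everyday HSP70 of the cytosol and the most abundant member, stood at 3024, 2980 and 3025 CPM in the Control samples and at 1636, 1519 and 1615 CPM with WNK463. The groups lay far apart with little spread in each. The log2 fold change was -0.92 (SE 0.04, adjusted p = 4.9e-12, edgeR), and the level fell from 2493 ± 20.7 to 1503 ± 50.9 TPM (SD, n = 3). GENCODE 29 names 17 pseudogenes of *HSPA8*, and how reads were shared with them is not given in the sources used here.

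*HSP90AA1*, the inducible HSP90 gene, held 1979, 2297 and 2475 CPM in Control and 1123, 1133 and 1086 CPM with WNK463. Control 1 was the lowest Control sample and still lay above every WNK463 sample. This gene was lower by 2-fold, with a log2 fold change of -1.01 (SE 0.06, adjusted p = 1.1e-10, edgeR), and by -0.86 when samples were scaled by total counts. *HSP90AB1*, its constitutive partner, held 1963, 1979 and 1916 CPM in Control and 1338, 1238 and 1288 CPM with WNK463, a log2 fold change of -0.60 (SE 0.04, adjusted p = 1.4e-09). The ratio of *HSP90AA1* to *HSP90AB1* in TPM was 0.800, 0.921 and 1.02 in Control and 0.666, 0.728 and 0.670 with WNK463, so every WNK463 sample lay below every Control sample. No test was run on any ratio, since 3 samples against 3 cannot give an exact permutation p below 0.10. The summed TPM of the 3 HSP90 genes went from 3309.8 ± 224 to 2350.2 ± 47.2 (SD, n = 3). *HSP90B1*, the ER member GRP94, held 784, 905 and 957 CPM in Control and 711, 728 and 691 CPM with WNK463. Its log2 fold change was -0.31 (adjusted p = 0.00013, edgeR), and on log2(TPM + 1) with limma it was -0.11 and the call was lost (adjusted p = 0.21).

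The promoter of *HSP90B1* held 2 matches to the ER stress element, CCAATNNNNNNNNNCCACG read on both strands, which stood before 1 of 83 members (1.2%) and 0.0916% of all genes. They are shown because *HSP90B1* was the only member with a match. Binding was not measured, and a link between the matches and the gene's change was not tested. The letters of the element are in capitals, and the second match lies on the opposite strand, and both windows lie in exons of longer annotated transcripts.
HSP90B1, chr12:103930210-103930238, plus strand: ccctgaCCAATcggaaggagCCACGcttc
HSP90B1, chr12:103930315-103930343, plus strand: tgggtgCGTGGtgcggcgcgATTGGtggg

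**Figure D2:**
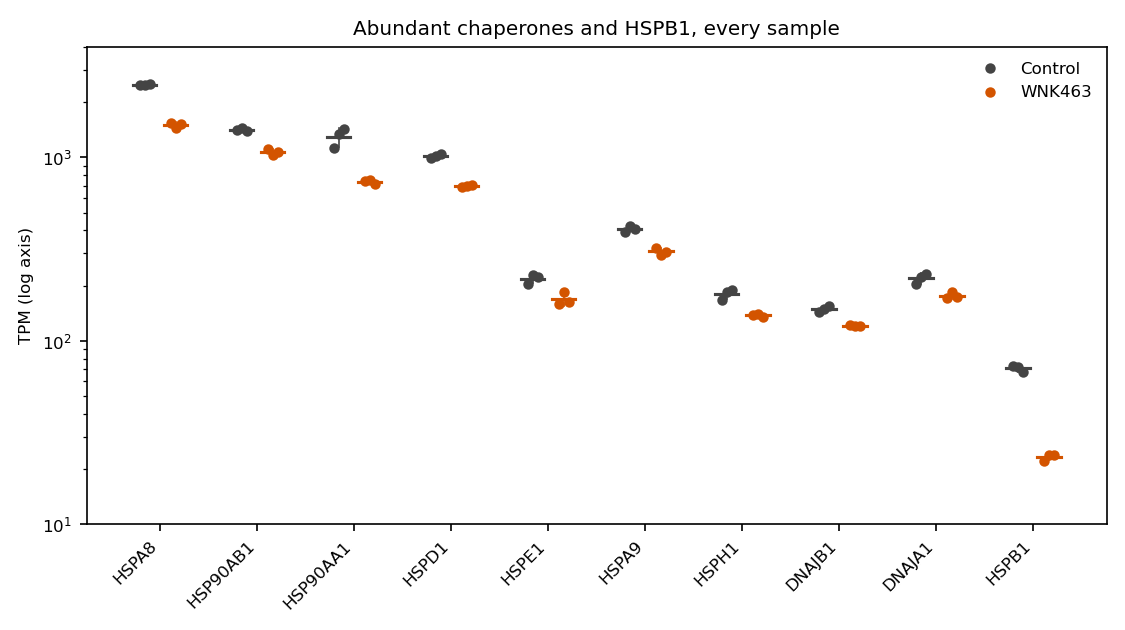
Level in TPM (vertical log axis) of abundant chaperones and *HSPB1* in each of the 3 Control and 3 WNK463 samples (points), with the group mean (horizontal bar) and 1 SD (vertical bar). *HSPA8* sits at 2473 to 2514 TPM in Control and 1446 to 1543 TPM with WNK463, and *HSPB1* drops from a mean of 70.8 to 23.3 TPM.

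Of the other HSP70 genes, the inducible pair fell, and 1 gene of the ER rose. *HSPA1A* held 54.9, 48.4 and 47.1 CPM in Control and 30.1, 25.5 and 25.2 CPM with WNK463, a log2 fold change of -0.90 (adjusted p = 2.7e-08, edgeR). Its near-identical neighbour *HSPA1B* had a log2 fold change of -0.57 (adjusted p = 5.2e-07). Because reads of the 2 copies can be exchanged, their sum is the safer value, and it went from 126 ± 5.34 to 77.9 ± 6.85 CPM (SD, n = 3). *HSPA9*, which encodes the mitochondrial HSP70 mortalin, fell from 616 ± 17.6 to 434 ± 4.33 CPM (log2 fold change -0.51, adjusted p = 9.7e-09). The ratio of *HSPA8* to *HSPA9* in TPM was 6.11 ± 0.210 in Control and 4.90 ± 0.0955 with WNK463, and the groups did not overlap.

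The HSP110 genes encode nucleotide exchange factors for HSP70. *HSPH1* held 326, 353 and 364 CPM in Control and 235, 237.9 and 229.7 CPM with WNK463 (log2 fold change -0.57, SE 0.05, adjusted p = 1.1e-08, edgeR), and *HSPA4* had a log2 fold change of -0.37 (adjusted p = 1.1e-06). *HSPA4L* did not pass (-0.06, adjusted p = 0.51). *HSPA13*, an ER-resident HSP70 of the microsomal membrane, was the only HSP70 gene called higher, at 45.8, 46.7 and 49.2 CPM in Control and 65.9, 62.2 and 68.8 CPM with WNK463 (log2 fold change 0.47, adjusted p = 2.4e-06). Its level is low beside its relatives: *HSPA8* stood 112 ± 3.91 times higher in TPM in Control and 42.6 ± 1.13 times with WNK463. *HSPA14* (-0.16), *HSPA2* (0.30), *HSPA1L* (0.40) and *HSPA6* (0.13) did not pass. Of the 12 HSP70 and HSP110 genes tested, 1 was higher (8.33%), 6 lower (50%) and 5 not passed, against 35.5% and 35.3% of all genes. Their median log2 fold change was -0.26, and their summed level went from 3382 ± 49.3 to 2221 ± 70.3 TPM.

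The small heat shock proteins hold unfolded proteins without ATP, and 1 of the 7 genes, *HSPB1*, was expressed enough to test. It fell more than any other member tested. *HSPB1*, which encodes HSP27, held 30.7, 29.3 and 27.0 CPM in Control and 7.61, 8.20 and 7.85 CPM with WNK463, a change of -72.8%. The log2 fold change was -1.88 (SE 0.10, adjusted p = 1.3e-11, edgeR), and it lay between -1.94 and -1.56 in every alternative run. *HSPB2*, *HSPB3* and *HSPB8* had 0 counts in all 6 samples.

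Both mitochondrial chaperonin genes were lower. *HSPD1*, which encodes HSP60, held 1211, 1225 and 1246 CPM in Control and 731, 732 and 748 CPM with WNK463, the groups lying far apart. The log2 fold change was -0.74 (SE 0.04, adjusted p = 4.5e-11, edgeR). *HSPE1*, which encodes the HSP10 lid of the same chamber, held 62.2, 67.6 and 66.1 CPM in Control and 41.4, 48.0 and 43.0 CPM with WNK463 (log2 fold change -0.56, adjusted p = 7.2e-07). In TPM, *HSPD1* stood 4.66 ± 0.173 times above *HSPE1* in Control and 4.16 ± 0.332 times with WNK463. In this ratio every WNK463 sample lay below every Control sample. The 2 genes lie head to head and share 281 exonic bases on opposite strands, and GENCODE 29 names 17 pseudogenes of *HSPD1* and 26 of *HSPE1*. The read-through gene *HSPE1-MOB4* held 0, 1.58 and 3.17 CPM in Control and 4.47, 6.34 and 2.87 CPM with WNK463, and its groups overlapped. It was called higher (log2 fold change 1.53, adjusted p = 0.015, edgeR) but not by DESeq2 (adjusted p = 0.36) nor without WNK463 sample 2 (1.21, adjusted p = 0.11). It shares 192 exonic bases with *HSPE1*.

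All 8 members listed as mitochondrial were lower (100%, against 35.3% of all genes), with a median log2 fold change of -0.57. The list was chosen with earlier results of these data known and may leave out other mitochondrial members, so the 100% holds for the list alone. Of the 59 tested members in neither compartment list, 15 were higher (25.4%) and 28 lower (47.5%). The higher ones include *DNAJC28* (3.24) and *DNAJC4* (0.85), whose compartment was not assigned here. The summed level of the 8 went from 1879 ± 50.4 to 1349 ± 5.16 TPM. Beside *HSPA9* and the chaperonins these are J-domain genes. *DNAJA3*, which serves the mitochondrial HSP70, held 135, 132 and 134 CPM in Control and 91.6, 82.2 and 95.3 CPM with WNK463 (log2 fold change -0.58, adjusted p = 7.2e-08, edgeR). *DNAJC11*, a partner of the cristae-organising complex, held 156, 154 and 147 CPM in Control and 88.9, 86.2 and 88.6 CPM with WNK463 (log2 fold change -0.80, adjusted p = 1.8e-10). It shares 1419 exonic bases with *THAP3* on the other strand, and whether counting used strand is not given in the sources used here. *DNAJC30*, a J-domain protein of the mitochondrial inner membrane, held 11.1, 13.2 and 9.27 CPM in Control and 5.50, 3.95 and 6.06 CPM with WNK463 (log2 fold change -1.11, adjusted p = 1.3e-05). Control and WNK463 samples did not overlap for any of these 3 genes. *DNAJC15* (-0.41, adjusted p = 0.00084) and *DNAJC19* (-0.36, adjusted p = 0.0054), both co-chaperones of the protein import motor, were lower in the edgeR test and lost the call on log2(TPM + 1) with limma (adjusted p = 0.19 and 0.24), and *DNAJC19* also when scaled by total counts (-0.21, adjusted p = 0.099).

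The 10 members listed for the ER moved otherwise, with a median log2 fold change of 0.30. Of these, 5 were higher (50%), 2 lower (20%) and 3 not passed, against 35.5% and 35.3% of all genes. Their summed TPM was 866 ± 86.2 in Control and 908 ± 27.7 with WNK463, which overlap. *DNAJB14*, a J-domain protein of the ER membrane, held 45.4, 55.8 and 54.6 CPM in Control and 97.1, 106 and 93.0 CPM with WNK463, a log2 fold change of 0.93 (SE 0.07, adjusted p = 3.6e-09, edgeR). *DNAJC1*, another J-domain protein of that membrane, held 3.04, 3.64 and 3.48 CPM in Control and 7.37, 9.48 and 8.68 CPM with WNK463 (log2 fold change 1.33, adjusted p = 1.5e-06). *DNAJC10*, a disulfide reductase of the ER lumen, held 72.6, 77.8 and 84.0 CPM in Control and 119, 112 and 113 CPM with WNK463 (log2 fold change 0.55, adjusted p = 1.9e-07). *DNAJC3*, which works with BiP and restrains the stress kinase PERK, held 79.7, 85.8 and 93.7 CPM in Control and 118, 122 and 119.9 CPM with WNK463 (log2 fold change 0.47, adjusted p = 1.3e-06). The WNK463 samples were above every Control sample for these 4 genes and for *HSPA13*.

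Within the ER the direction was not shared by all. *HSP90B1* was lower, and *DNAJB11*, which encodes a lumenal partner of BiP, had a log2 fold change of -0.18 (adjusted p = 0.019, edgeR) that turned to 0.01 on log2(TPM + 1). Its call was also lost when scaled by total counts (-0.03), without Control sample 2 (adjusted p = 0.081), without Control sample 3 (adjusted p = 0.052) and without WNK463 sample 1 (adjusted p = 0.068). *DNAJB12* (-0.08), *DNAJC16* (0.13) and *DNAJC25* (-0.04) did not pass. The 2 ER genes that the symbol rule set aside also parted: *HSPA5*, which encodes BiP, had a log2 fold change of -0.28 (adjusted p = 1.5e-05), and *DNAJB9* one of 1.01 (adjusted p = 4.4e-08).

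**Figure D3:**
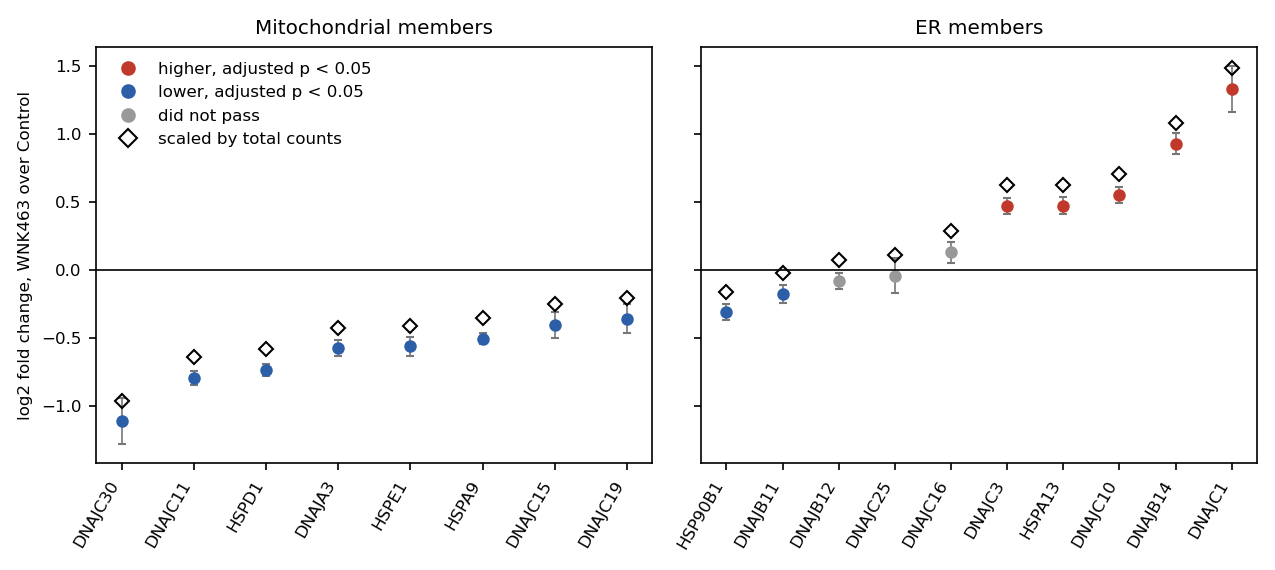
Log2 fold change (vertical axis, WNK463 over Control) of the 8 members listed as mitochondrial (left) and the 10 listed for the ER (right). Filled points with standard error bars are edgeR with TMM, coloured by call, and open diamonds are scaling by total counts. All 8 listed mitochondrial members lie below 0 under both scalings, from -1.11 to -0.36 with TMM. The listed ER members run from -0.31 to 1.33.

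TRiC, the chaperonin ring of the cytosol, is built from 8 different subunits in equal number, *TCP1* and *CCT2* to *CCT8* with *CCT6A* in most cells. Of these 8, 7 were lower (87.5%, against 35.3% of all genes) and *CCT8* was higher. All 8 had mean levels of 200 TPM or more, where 64.7% of all genes tested were lower. *TCP1* held 538, 515 and 511 CPM in Control and 333, 332 and 351 CPM with WNK463, a log2 fold change of -0.62 (SE 0.05, adjusted p = 1.0e-09, edgeR). *CCT5* held 551, 561 and 567 CPM in Control and 383, 372 and 366 CPM with WNK463 (log2 fold change -0.58, adjusted p = 1.4e-09). *CCT7* (-0.44), *CCT4* (-0.41), *CCT3* (-0.39) and *CCT6A* (-0.34) fell less, with adjusted p between 1.7e-07 and 2.3e-06. *CCT2* was the least changed of those called lower (-0.22, adjusted p = 0.00032), and it was not called when scaled by total counts (-0.07, adjusted p = 0.18) or in TPM (-0.03, adjusted p = 0.59).

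*CCT8*, which encodes the theta subunit, held 663, 648 and 673 CPM in Control and 731, 770 and 748 CPM with WNK463, with no overlap. Its log2 fold change was 0.18 (SE 0.04, adjusted p = 0.0011, edgeR), 0.33 when scaled by total counts and 0.37 in TPM. Measured inside each sample, which no scaling touches, the ratio of *CCT8* to *TCP1* in TPM was 1.34, 1.37 and 1.43 in Control and 2.40, 2.55 and 2.42 with WNK463. The ratio of *CCT8* to *CCT5* went likewise from 1.37 ± 0.0249 to 2.36 ± 0.113. In both ratios every WNK463 sample lay above every Control sample. *CCT6B*, the testis-enriched version of the sixth subunit, held 2.50, 3.36 and 3.66 CPM in Control and 8.70, 9.88 and 9.70 CPM with WNK463, a log2 fold change of 1.57 (SE 0.17, adjusted p = 2.2e-07). It remained a minor transcript: its ratio to *CCT6A* in TPM was 0.0151 ± 0.00185 in Control and 0.0492 ± 0.00474 with WNK463. It shares 180 exonic bases with *LIG3* on the other strand. The summed TPM of the 10 TRiC genes went from 3789 ± 46.9 to 3502 ± 41.2.

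Prefoldin, the 6-part clamp that hands actin and tubulin to TRiC, moved in both directions. *PFDN4* held 10.6, 10.01 and 13.1 CPM in Control and 17.0, 19.7 and 19.1 CPM with WNK463 (log2 fold change 0.73, SE 0.11, adjusted p = 1.7e-05, edgeR). *PFDN5*, the most abundant prefoldin gene here, held 78.7, 71.7 and 73.8 CPM in Control and 83.0, 92.4 and 85.8 CPM with WNK463 (log2 fold change 0.22, adjusted p = 0.0030). *PFDN6* held 28.1, 29.1 and 27.9 CPM in Control and 22.2, 22.3 and 22.2 CPM with WNK463 (log2 fold change -0.35, adjusted p = 0.00046), and shares 724 exonic bases with *RGL2* on the other strand. None of these 3 genes overlapped between groups. *PFDN1* (-0.09) and *PFDN2* (-0.12) did not pass, and both turned positive under total counts and TPM. The median of the 5 genes was -0.09 with TMM and 0.06 scaled by total counts. The remaining subunit is encoded by *VBP1*, which the symbol rule does not match, and it did not pass (-0.16, adjusted p = 0.077).

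**Figure D4:**
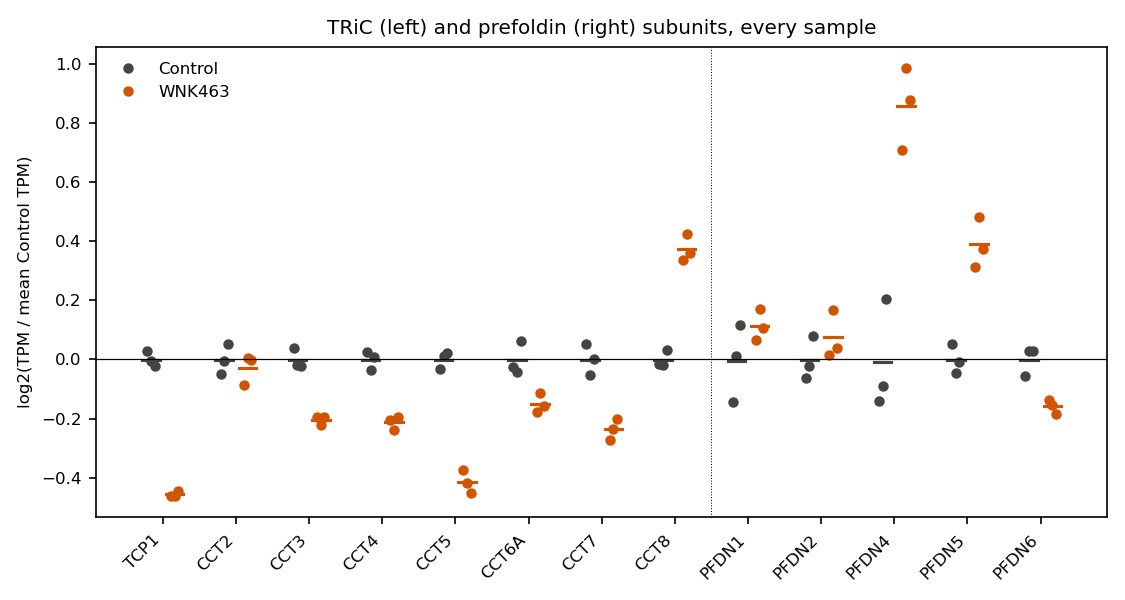
Level of each TRiC subunit (left of the dotted line) and prefoldin subunit (right) in every sample, as log2 of TPM over the mean Control TPM (vertical axis), with points for the 3 Control and 3 WNK463 samples and a bar for each group's mean. *CCT8* is the only TRiC subunit drawn whose WNK463 samples all lie above Control (837 to 889 TPM against 654 to 677 TPM), and in TPM the *CCT2* means of 399 and 391 TPM lie close together.

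The DNAJA genes encode the J-domain proteins most like bacterial DnaJ, and 3 of 4 were lower (75%, against 35.3% of all genes). *DNAJA1*, the farnesylated partner of HSC70, held 257, 276 and 288 CPM in Control and 187, 199.6 and 189 CPM with WNK463 (log2 fold change -0.51, SE 0.05, adjusted p = 8.3e-08, edgeR). *DNAJA4* held 34.5, 37.0 and 33.5 CPM in Control and 20.4, 20.3 and 16.3 CPM with WNK463 (log2 fold change -0.88, adjusted p = 1.2e-07). *DNAJA2* did not pass (0.09, adjusted p = 0.11), but was called higher when scaled by total counts (0.25, adjusted p = 0.00036). The groups of *DNAJA1* and *DNAJA4* did not overlap.

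Of the 8 DNAJB genes tested, 4 were higher (50%), 2 lower (25%) and 2 did not pass, against 35.5% and 35.3% of all genes. *DNAJB1*, the heat-inducible HSP40 of the cytosol, held 175, 177 and 174 CPM in Control and 129, 127 and 128 CPM with WNK463, with little spread in either group. Its log2 fold change was -0.46 (SE 0.05, adjusted p = 1.0e-07, edgeR). *DNAJB4*, a close relative of *DNAJB1*, went the other way, at 5.24, 6.24 and 5.55 CPM in Control and 14.2, 16.3 and 14.0 CPM with WNK463 (log2 fold change 1.39, SE 0.13, adjusted p = 2.2e-08). *DNAJB6*, which keeps polyglutamine proteins from aggregating and whose promoter letters were given above, held 98.1, 110 and 110 CPM in Control and 122, 127 and 132 CPM with WNK463 (log2 fold change 0.26, adjusted p = 0.00049). *DNAJB2* was also higher (0.52, adjusted p = 0.0010), and *DNAJB5* did not pass (0.18). The family's median was 0.22, and 0.09 without Control sample 1.

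The DNAJC genes share a J domain and little else. Of 25 tested, 9 were higher (36%), 8 lower (32%) and 8 not passed, near the 35.5% and 35.3% of all genes. The 3 largest increases were in genes of low level. *DNAJC28* held 5, 9 and 4 counts in Control and 65, 62 and 54 counts with WNK463, or 0.304, 0.617 and 0.244 CPM against 3.93, 3.60 and 3.45 CPM. The log2 fold change was 3.24 (SE 0.34, adjusted p = 1.6e-07, edgeR). *DNAJC12*, a co-chaperone of the aromatic amino acid hydroxylases, held 0.609, 0.686 and 0.427 CPM in Control and 3.38, 3.43 and 3.19 CPM with WNK463 (log2 fold change 2.53, SE 0.31, adjusted p = 8.1e-07). Neither gene passed a filter of at least 10 counts in every sample, and the third is *DNAJC1*, given above.

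*DNAJC4* held 18.8, 18.1 and 19.8 CPM in Control and 31.9, 34.6 and 35.8 CPM with WNK463 (log2 fold change 0.85, adjusted p = 3.6e-08, edgeR), and shares 297 exonic bases with *NUDT22* on the same strand. *DNAJC27* (0.84), the endosomal *DNAJC13* (0.41) and *DNAJC24* (0.36), which serves diphthamide synthesis, were also higher, with adjusted p of 0.00056, 9.0e-06 and 0.0062. With *DNAJC10* and *DNAJC3* these make up the 9.

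*DNAJC9*, a nuclear J-domain protein that also binds histones H3 and H4, held 73.8, 80.9 and 81.1 CPM in Control and 33.3, 38.6 and 35.9 CPM with WNK463. It had the smallest p of the family, with a log2 fold change of -1.13 (SE 0.07, adjusted p = 9.6e-11, edgeR), and it shares 949 exonic bases with *FAM149B1*. *DNAJC8*, a protein of the spliceosome, had a log2 fold change of -0.30 (adjusted p = 4.9e-05), not called in TPM (-0.09, adjusted p = 0.14). *DNAJC2*, a ribosome-bound J-domain protein, was at -0.32 (adjusted p = 0.0047) and was not called when scaled by total counts (adjusted p = 0.13). *DNAJC7*, which binds both HSP70 and HSP90, was at -0.16 (adjusted p = 0.016) and was not called when scaled by total counts (-0.01), without Control sample 3 (adjusted p = 0.058) or without WNK463 sample 3 (adjusted p = 0.077). On log2(TPM + 1) with limma, neither *DNAJC2* (-0.09, adjusted p = 0.51) nor *DNAJC7* (-0.03, adjusted p = 0.76) was called. The median of the DNAJC genes was 0.13, and it turned to -0.03 without WNK463 sample 2 and under the filter of 10 counts.

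The 37 DNAJ genes tested thus held 13 higher, 13 lower and 11 not passed. That is 35.1% in each direction, close to the 35.5% higher and 35.3% lower of all genes. Their summed level was 1851 ± 102 TPM in Control and 1889 ± 43.5 TPM with WNK463. The 40 other members tested, read-through genes aside, held 7 higher (17.5%), 25 lower (62.5%) and 8 not passed. Their median log2 fold change was -0.34, and their summed level of 12969 ± 312 TPM fell to 10227 ± 22.8 TPM. The ratio of *HSPA8* to its partner *DNAJA1* in TPM was 11.4 ± 0.684 in Control and 8.56 ± 0.627 with WNK463.

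The BAG genes include nucleotide exchange factors of HSP70. Of the 6, 4 were lower (66.7%) and 1 higher (16.7%), against 35.3% and 35.5% of all genes. *BAG1* (log2 fold change -0.39, adjusted p = 6.4e-06, edgeR) and *BAG6* (-0.35, adjusted p = 9.1e-06), which guides tail-anchored proteins and is the most abundant of the family at 224 and 198 TPM, kept their calls under every alternative. *BAG2* (-0.35, adjusted p = 0.0032) was not called when scaled by total counts (adjusted p = 0.081) or on log2(TPM + 1) with limma (-0.14, adjusted p = 0.35). *BAG2* shares 2842 exonic bases with *RAB23* on the other strand. *BAG3*, a stress-induced member tied to selective autophagy, was at -0.21 (adjusted p = 0.021) and lost its call when scaled by total counts (-0.06), without Control sample 1 (adjusted p = 0.066) and without WNK463 sample 2 (adjusted p = 0.11). The call of *BAG3* was also lost on log2(TPM + 1) with limma (-0.02, adjusted p = 0.83). *BAG4* was at 0.20 (adjusted p = 0.017) and lost its call without Control sample 1 (adjusted p = 0.098) and without WNK463 sample 2 (adjusted p = 0.088). *BAG5* did not pass (0.01).

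The heat shock factors themselves changed little. *HSF1* held 128, 119 and 119 CPM in Control and 111, 102 and 114 CPM with WNK463, a log2 fold change of -0.17 (SE 0.06, adjusted p = 0.013, edgeR). The direction turned to 0.05 in TPM, the value was -0.02 when scaled by total counts, and without WNK463 sample 2 the adjusted p was 0.076. *HSF2* held 17.0, 22.0 and 20.8 CPM in Control and 25.4, 22.8 and 24.8 CPM with WNK463, so that the groups lay close without overlapping (log2 fold change 0.29, adjusted p = 0.013). Its call was lost without Control sample 1 (0.18, adjusted p = 0.087) and without WNK463 sample 1 (0.26, adjusted p = 0.060). Activity of *HSF1* depends on the state of its protein, which RNA does not show.

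In a list of 22 textbook *HSF1* targets, 18 of 21 tested were lower and 1 was higher, *DNAJB4*, against 35.3% and 35.5% of all genes. The median log2 fold change of the list was -0.57. The list was chosen with earlier results of these data known. At 200 TPM or more 64.7% of all genes were lower, and the list was not matched for level. Of the 22, 14 are members described above. Of the 7 tested genes that are not, 6 were lower, among them *STIP1* (-0.82), *AHSA1* (-0.87) and *CHORDC1* (-0.83).

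Genes that work beside the members were taken as further lists. Of 16 HSP90 co-chaperones, 12 were lower (75%) and 2 higher (12.5%), with a median of -0.49, against 35.3% and 35.5% of all genes. *AHSA1*, *STIP1*, *CHORDC1* and *FKBP4* are also in the list of *HSF1* targets, so the 2 lists are not separate. *AHSA1*, which speeds the ATPase of HSP90, had a log2 fold change of -0.87 (adjusted p = 4.3e-11, edgeR), from 253 to 160 TPM. *STIP1*, which bridges HSP70 and HSP90, had one of -0.82 (adjusted p = 3.4e-11), from 426 to 276 TPM. *CDC37*, the adaptor for kinase clients, was also lower (-0.52, adjusted p = 1.0e-08), and *CDC37L1* was higher (0.80, adjusted p = 5.7e-05). Of 9 HSP70 cofactors, 6 were lower (66.7%) and 1 higher (11.1%), with *SGTA* (-0.89, adjusted p = 2.9e-11) and *UBQLN2* (-0.79, adjusted p = 5.0e-09) first by p and *SGTB* (0.92) the higher one.

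Of 12 further mitochondrial chaperones and proteases, 4 were lower (33.3%, near the 35.3% of all genes) and 8 did not pass, with a median of 0.00. *TRAP1*, the HSP90 of mitochondria (-0.73, adjusted p = 1.1e-09, edgeR), *CLPP* (-0.60, adjusted p = 2.2e-08), *LONP1* (-0.58) and *GRPEL1* (-0.31), the exchange factor of mitochondrial HSP70, were the 4. Of 12 partners of TRiC and prefoldin, 5 were lower (41.7%), 2 higher (16.7%) and 5 not passed, against 35.3% and 35.5% of all genes. *RUVBL1* (-0.89, adjusted p = 1.0e-10) and *RUVBL2* (-0.83, adjusted p = 1.3e-09), the ATPase pair of the R2TP assembly complex, were first by p, and the phosducin-like genes *PDCL3* (0.47) and *PDCL* (0.29), which bind TRiC, were the higher ones. Of 4 tested regulators and relatives of *HSF1*, *HSF4* (1.71, adjusted p = 1.9e-06), *SIRT1* (0.77, adjusted p = 4.8e-09) and *HDAC6* (0.28) were higher. *HSF4* was at 3.59 TPM in Control and 10.4 TPM with WNK463.

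The 16 members without enough counts to test were *HSPA12A*, *HSPA12B*, *HSPB2*, *HSPB3*, *HSPB6*, *HSPB7*, *HSPB8*, *HSPB9*, *CCT8L2*, *DNAJB7*, *DNAJB8*, *DNAJB13*, *DNAJC5G*, *DNAJC6*, *DNAJC22* and the read-through gene *HSPB2-C11orf52*. Of these, *DNAJB13*, an axonemal gene, had 0 counts in every Control sample and 3, 6 and 7 counts with WNK463. The other read-through gene tested, *DNAJC25-GNG10*, did not pass (-0.03).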

How the data were processed

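Bead-captured mRNA of 6 MV4-11 samples was sequenced. Per the labels, the authors' processing notes name fastp, Bowtie2, HISAT2, StringTie, RSEM, DESeq2 and edgeR with build GRCh38, without roles or versions, and strand handling is not given in the sources used here. The deposited table holds estimated counts per gene, whole numbers as deposited, and TPM values per sample. Its mean levels per group (a pooled TPM signal), log2 fold changes and p-values are the authors' own comparison and were not used. 62 values pair a count of 0 with a TPM above 0, as rounding of estimated counts would give.

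The members and lists were chosen with earlier results of these data known. Counts were tested with edgeR 4.0.16 in R 4.3.3 (TMM, filterByExpr, glmQLFit, glmQLFTest, Benjamini-Hochberg over 11973 genes, adjusted p below 0.05). TMM factors were 0.944 to 0.952 in Control and 1.05 to 1.06 with WNK463, and the common biological coefficient of variation was 5.21%. Replicates differed by more than sampling noise (chi-square per degree of freedom 2.64 to 7.13). Named genes were the members changed at least 2-fold, in each family the highest by TPM and the 2 with the smallest p, all HSP90, CCT, PFDN, BAG and HSF genes, and of each partner list the 2 with the smallest p. Genes outside these rules were chosen for the text with their values in view. Alternatives were scaling by total counts, DESeq2 1.42.0, no filter or at least 10 counts in every sample, a replicate block, limma 3.58.1 on log2(TPM + 1) and log2(TPM + 0.1), and leaving out each sample. The code was tested on simulated data. Positions and overlaps are from GENCODE 29 and promoters from RefSeq. Some genes of the partner lists are counted but not reported here by name.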

Additional observations from a re-analysis of the deposited data

How the results depend on the processing

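Members called were 18 to 27 higher and 27 to 38 lower over the settings that kept all samples, and leaving out a sample gave 19 to 21 higher and 36 to 40 lower. Those 6 fits gave 5 to 6 members higher and 3 to 4 lower by at least 2-fold. Replicate numbers have no stated pairing: same-numbered samples deviated from their group means with correlations of 0.02, -0.01 and -0.05, and 1 of 6 samples correlated best with its own number. With the replicate block 21 members were higher and 38 lower, with 4223 and 4175 of all genes. The block changed no call of a member. With at least 10 counts in every sample, 3 members were higher by at least 2-fold. Lower by at least 2-fold was 1 member when scaled by total counts and 1 in each TPM fit. All genes lower were 2698 with log2(TPM + 1) and 2694 with log2(TPM + 0.1), against 4222. Depth limits the 16 members not tested and those under 10 counts.

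Family medians moved with the scaling, except that of DNAJC in the TPM fits. In the order total counts, log2(TPM + 1) and log2(TPM + 0.1), they were -0.112, -0.116 and -0.118 for HSP70 and HSP110, -0.449, -0.407 and -0.408 for HSP90, -0.497, -0.457 and -0.458 for HSPD and HSPE, -1.725, -1.561 and -1.598 for HSPB, and -0.242, -0.203 and -0.203 for TRiC. They were 0.064, 0.117 and 0.118 for prefoldin, a reversed direction, -0.392, -0.340 and -0.343 for DNAJA, 0.375, 0.402 and 0.448 for DNAJB, -0.126, -0.079 and -0.087 for BAG, and 0.213, 0.246 and 0.257 for HSF. DNAJC stood at 0.277, 0.125 and 0.158 in that order, and at -0.025 with at least 10 counts, which leaves out *DNAJC28* and *DNAJC12*. With a sample left out, medians ranged from -0.630 to -0.574 for HSP90, 0.090 to 0.302 for DNAJB, -0.031 to 0.166 for DNAJC and -0.287 to -0.232 for BAG. The cause was not tested.

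Of 556 pairs of a named member and an alternative, 517 kept direction and call, 24 lost the call, 4 gained one and 11 turned direction. The last were *BAG5* (-0.00010 without a filter, and -0.0226 to 0.0516 with a sample left out, below 0 without Control sample 3 at -0.00437), *HSF1* (0.0520 and 0.0524 in the TPM fits), *PFDN1* (0.0645 with total counts, 0.117 and 0.118 in TPM) and *PFDN2* (0.0349, 0.0751 and 0.0757).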
